A study of Mus musculus with 3 samples.

Results

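Deep dermal mesenchyme at E13.5 is described here as 228 cells of back skin, chosen by the genes they hold. D counted how many of 6 deep genes (*Aspn*, *Agtr2*, *Osr1*, *Smoc2*, *Igfbp3* and *C1qtnf3*) had at least 1 unique molecular identifier (UMI) in a cell, and U counted the same for 6 upper dermal genes (*Crabp1*, *Nrgn*, *Calb1*, *Pth1r*, *Twist2* and *Lix1*). A member had D minus U of at least 3 and no UMI of *Cdh5*, *Ptprc*, *Sox10*, *Trp63*, *Elavl3* and *Myod1*, which mark endothelial, immune, neural crest derived, epithelial, neuronal and muscle cells. The 228 members were 6.00% (5.26% to 6.80%) of the 3802 E13.5 cells without those lineage genes, 3.82% of all 5962 E13.5 cells, and part of 16235 cells in the whole table.

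Skin was taken from the backs of male C57BL/6 mice at E13.5, E16.5 and birth (P0), from several animals within a stage, and each stage gave 1 droplet-based 3' single-cell library. The embryonic skin was digested with trypsin and the P0 skin with collagenase IV. No mouse was treated or carried an altered allele as far as the labels say. With 1 library per stage no test was possible, so the intervals given here are 95% intervals of counting error, and neither animal spread nor library spread is known.

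Dermal mesenchyme makes the collagen-rich connective tissue of skin. The upper layer, next to the epidermis, receives Wnt signals and gives rise to the papillary dermis and the dermal condensates of hair follicles, whereas deeper mesenchyme is known to give rise to reticular dermis, dermal fat and fascia. Mesenchymal cells secrete growth factors, Wnt inhibitors and matrix proteins that act on the epidermis and on the mesenchyme itself.

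All E13.5 cells held 53334740 UMIs, with a median of 7066.5 per cell, and the members held 1685852 UMIs, with a median of 6343.5. The cells used for comparison held more UMIs each. Upper cells, the mirror image of the members (U minus D of at least 3), numbered 790 with a median of 7887 UMIs, and mixed cells, with D and U both at least 2 and no more than 2 apart, numbered 2136 with a median of 7079. Of the E13.5 barcodes, 84 also occurred in another library. RNA of other cell types was present in the members: 72 of them (31.6%) had at least 2 UMIs of each of 2 genes of an endothelial, immune, Schwann and melanocyte, epithelial, neuronal or muscle list, or more than 1% of their UMIs in globin and other erythroid genes, against 24.4% of upper and 36.5% of mixed cells. Summed over a list, the members and upper cells held 17245 and 14413 CPM of 8 erythroid genes, 243 and 205 CPM of epithelial, 243 and 123 CPM of muscle, 220 and 166 CPM of neuronal and 200 and 188 CPM of immune genes. Endothelial genes were at 55.2 and 47.4 CPM and Schwann and melanocyte genes at 45.7 and 33.7 CPM, and no gene of these lists differed by 1 log2 unit. The muscle list was less even: 22 of the 228 members and 25 of the 790 upper cells met its condition. Its gene *Actc1* was at 107 against 49.8 CPM, a log2 difference of 0.97 after 10 CPM was added. The 6 lineage genes themselves are at 0 by the rule. Counts were also made without such cells, which left 156 members, and the part of this RNA in other results was not tested.

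By D minus U, the members formed the tail of a continuous distribution rather than a separate peak. Whether the cells fall into separate populations was not tested, since the score counts detected genes only. At E13.5, 660 cells had D minus U of 0, 353 had 2, 178 had 3, 41 had 4, 9 had 5 and none had 6. All 6 deep genes had UMIs in 34 members, and 37 members had no UMI of any upper gene. Values just inside and just outside the threshold were as follows. *Aspn* was at 398 UMIs per 1000000 (CPM) in the 178 cells with D minus U of 3 and 298 CPM in the 353 cells with 2, and *Twist2* was at 142 and 218 CPM. Both are genes of the rule, so the direction of these differences is built in.

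**Figure D1:**
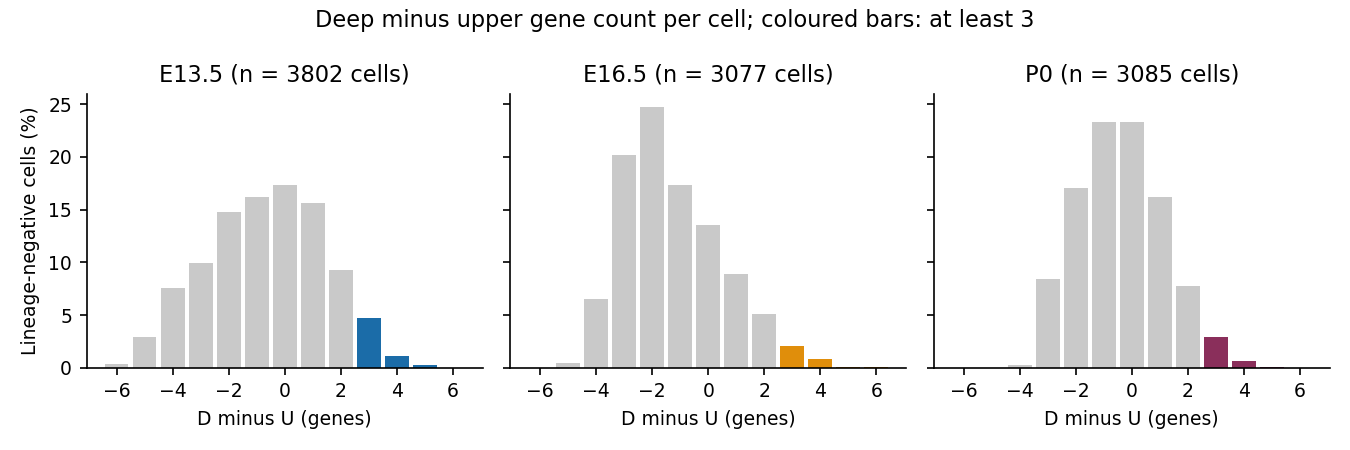
Percent of cells without the 6 lineage genes (y axis) at each value of D minus U (x axis, genes) in the E13.5, E16.5 and P0 libraries. Coloured bars are cells with a value of at least 3, and at E13.5 these are the 178, 41 and 9 cells with 3, 4 and 5, at the right edge of 1 broad distribution.

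The genes of the rule are described first, without any test, since they chose the cells. *Aspn* encodes asporin, a small leucine-rich proteoglycan of the matrix, and had UMIs in 180 of 228 members, at 403 CPM against 11.4 CPM in upper cells. *C1qtnf3*, a secreted protein of the C1q and TNF related family, was at 445 against 12.3 CPM. *Smoc2*, a calcium-binding matrix protein, was at 328 against 33.1 CPM, and *Igfbp3*, which binds insulin-like growth factors, at 308 against 28.3 CPM. *Agtr2*, the type 2 angiotensin receptor, was at 355 against 138 CPM, and *Osr1*, an odd-skipped zinc finger factor of connective tissue, at 268 against 184 CPM. Of the upper genes, *Crabp1*, a cytoplasmic retinoic acid binding protein, still had UMIs in 141 members, at 292 CPM against 2771 CPM in upper cells, whereas *Calb1* had UMIs in 5 members.

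Each deep gene was then read in cells chosen without it, by the other 5 deep genes and the same threshold. Under this choice 4 of the 6 remained more than 1 log2 unit higher in the deep cells: *Aspn* by 2.33 (2.07 to 2.58), *C1qtnf3* by 2.13 (1.89 to 2.37), *Igfbp3* by 1.84 (1.59 to 2.08) and *Smoc2* by 1.54 (1.29 to 1.79). *Agtr2* differed by 0.55 (0.32 to 0.79) and *Osr1* by -0.17 (-0.41 to 0.07). *Osr1* was at 190 CPM in the 102 cells chosen without it and at 216 CPM in the 1080 upper cells, and had UMIs in 39.2% of the former and 71.2% of the latter. *Osr1* was thus not higher in deep cells once the rule did not use it.

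As a check of the label, general fibroblast genes were abundant in the members. *Col1a1* and *Col3a1*, the main fibrillar collagens of skin, were at 2439 and 2488 CPM, *Dcn* and *Lum*, small proteoglycans that bind collagen, at 1106 and 1112 CPM, and *Prrx1*, a mesenchymal homeobox factor, at 450 CPM. Genes of the mature deep lineages were at uneven levels. *Cd34*, *Mfap5* and *Dpt* of the fascia and reticular list were at 70.0, 37.4 and 32.0 CPM. *Dpp4*, *Pi16* and *Pparg*, markers of fascia, of adventitial fibroblasts and of fat cells, were at 4.75, 1.19 and 3.56 CPM, *Adipoq* and *Myh11* had no UMI in any member, and *Acan* was at 0.59 CPM. The position of the cells in the tissue was not measured, so the word deep rests on the genes of the rule.

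Against upper cells, the members were higher in 7 of 10 genes of the insulin-like growth factor list and 4 of 6 tendon genes. They were also higher in 8 of 20 collagens and 3 of 8 secreted Wnt inhibitors. Lower values were found in 8 of 12 Wnt target genes, 5 of 5 Iroquois genes and 4 of 20 genes of G2 and M phase. The difference is log2 of the ratio of the CPM values of summed UMIs after 10 CPM is added to both, and a gene is counted as higher or lower when it reaches 1 log2 unit. Among the 9736 genes with at least 50 UMIs over both groups, rule genes left out, 196 were higher in the members (2.01%) and 147 were lower (1.51%), and the median gene differed by -0.04. Genes with enough UMIs are called tested here, although no statistical test was run. Without the cells that held RNA of other types the counts were 226 and 211. Because the cells were chosen by measured genes, these shares describe the groups and are no test.

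The largest difference was in *Igf1*, a secreted growth factor (chromosome 10, 87858265 to 87937042 in GRCm38). *Igf1* was at 464 CPM in the members and 45.6 CPM in upper cells, a log2 difference of 3.09 (2.93 to 3.26), with UMIs in 71.5% and 24.6% of the cells. The members were also higher in *Klf4*, a zinc finger factor, at 144 against 12 CPM (2.80, 2.56 to 3.04). *Ptn*, the heparin-binding growth factor pleiotrophin, had UMIs in 227 of 228 members and was at 3228 against 520 CPM (2.61, 2.55 to 2.67). *Fibin* was at 495 against 73.3 CPM (2.60), *Zfhx3*, a large homeobox and zinc finger factor, at 362 against 57.2 CPM (2.47), and *Angptl1*, a secreted angiopoietin-like protein, at 154 against 22.3 CPM (2.34). The remaining genes among the 12 highest were *Sfrp2* (2.80), *Plagl1* (2.29), *Itm2a* (2.25), *Ogn* (2.23), *Postn* (2.23) and *Epha3* (2.15).

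Genes of the insulin-like growth factor list, which also holds binding proteins, receptors and *H19*, were mostly higher. Of 10 tested, 7 were higher and none lower, with a median of 1.20 against -0.04 over all genes tested. Without cells holding RNA of other types, 6 of 9 were higher. Beside *Igf1* the 7 included *H19*, an imprinted noncoding RNA next to *Igf2*, at 1686 against 627 CPM (1.41). *Igfbp4* (1.37), *Igfbp6* (1.34) and *Igf2*, at 1825 against 762 CPM (1.25), were higher as well. The others were *Igf2r*, the receptor that clears IGF2, at 99.7 against 39.1 CPM (1.16), and *Igfbp7* (1.08). For *Igfbp7*, 1 cell held 50% of the 32 UMIs in the members, and 7.02% of the members had any. *Igf1r*, the signalling receptor, was at 45.1 against 40.9 CPM (0.11, -0.18 to 0.41).

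Among 8 transforming growth factor beta genes, 3 were higher and 1 was lower. *Tgfb2* was at 167 against 33.7 CPM (2.01, 1.80 to 2.23) and *Tgfb3* at 57.5 against 10.4 CPM (1.73, 1.43 to 2.02), whereas *Tgfb1* was at 9.49 against 34.6 CPM (-1.19, -1.57 to -0.82). The receptors *Tgfbr1* and *Tgfbr2* differed by 0.52 and 0.40. The ligands thus differed in direction within a family whose receptors stayed below 1 log2 unit.

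Matrix genes differed gene by gene. Of 20 collagen genes tested, 8 were higher and none lower, with a median of 0.73. The 8 included *Col8a2* (1.92), *Col11a1* and *Col12a1* (1.78 and 1.73), which modify collagen fibrils, and *Col1a1* (1.05, 0.99 to 1.10), while the basement membrane collagen *Col4a1* differed by -0.41. Of 23 matrix glycoproteins, 8 were higher and 1 was lower. *Postn*, periostin, was at 207 against 36.4 CPM (2.23), *Lox*, the enzyme that crosslinks collagen and elastin, at 244 against 49.4 CPM (2.09), and *Mfap4* and *Mfap5*, proteins of elastic microfibrils, were higher by 1.66 and 2.03. The lower gene was *Fbln1*, at 216 against 530 CPM (-1.26, -1.41 to -1.11).

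Tendon genes were higher too. Of 10 listed, 6 had enough UMIs to be tested and 4 of those were higher: *Scx*, the tendon lineage factor scleraxis (1.98), *Tnmd*, tenomodulin, at 63.5 against 12.3 CPM (1.72, 1.43 to 2.01), *Kera*, keratocan (1.63), and *Tnc*, tenascin C (1.62). Only 4 of the 12 cartilage genes in the table could be tested, and *Sox9*, a factor of cartilage and other lineages, was higher, at 33.8 against 9.24 CPM (1.19). The cartilage collagen *Col2a1* was at 19.6 against 11.4 CPM (0.46, 0.10 to 0.83). In the adipogenic list, 3 of 10 genes were higher, all of them early B cell factors that also act in fat cell precursors: *Ebf2* (1.71), *Ebf3* (1.63) and *Ebf1* (1.42, and 0.87 without cells holding cell cycle genes). Of 12 fascia and reticular genes tested, *Mfap5*, *Mfap4*, *Dpt* (1.64) and *Cd34* (1.25) were higher and none was lower.

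**Figure D2:**
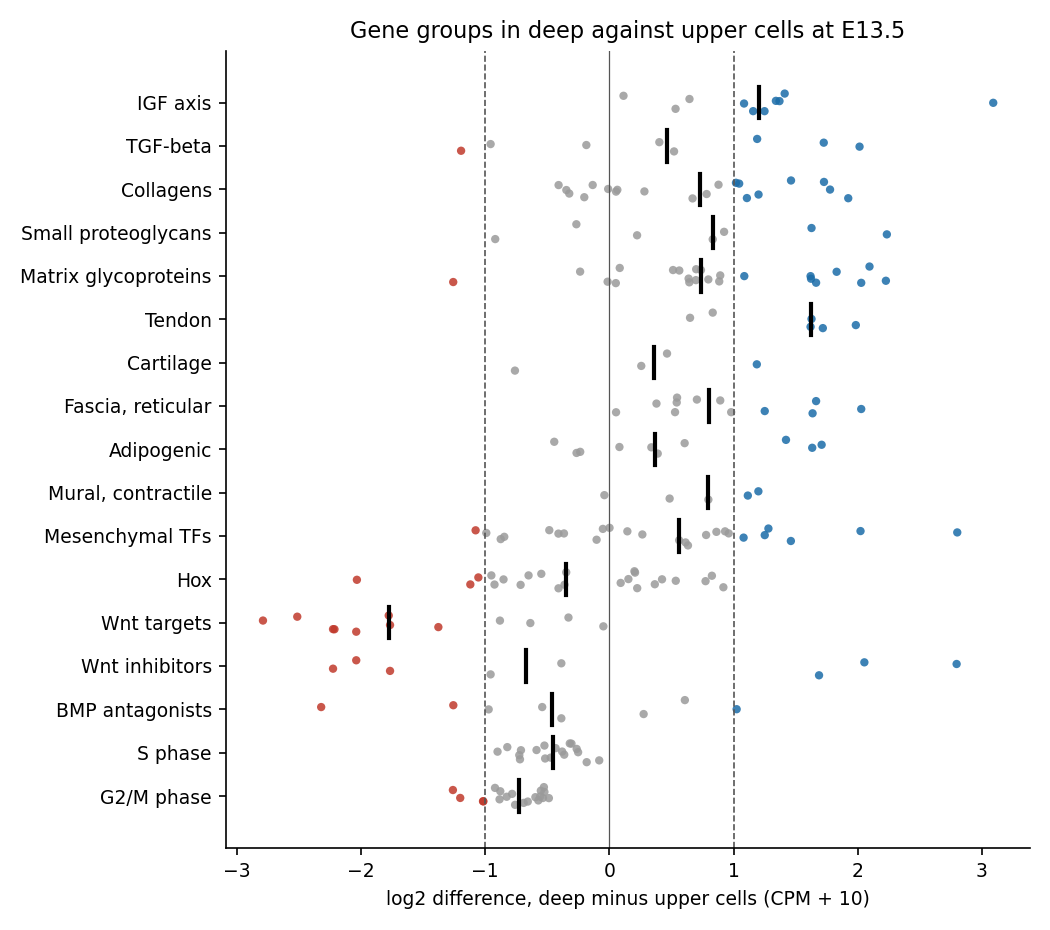
log2 difference of deep minus upper cells at E13.5 after adding 10 CPM (x axis) for each tested gene of 17 gene lists (y axis), with a black bar at the median of each list, dashed lines at 1 log2 unit, and colours for genes past them. Wnt targets lie to the left with a median of -1.77, the insulin-like growth factor list to the right with a median of 1.20, and Wnt inhibitors on both sides.

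Wnt target genes, which are switched on by beta-catenin with TCF and LEF factors, were lower in the members. Of 12 tested, 8 were lower and none was higher, with a median of -1.77, and without cells holding RNA of other types the counts were 8 and 0 of 11. *Sp5*, a zinc finger factor, was at 12.5 CPM in the members and 145 CPM in upper cells (-2.79, -3.14 to -2.44), and 7.02% of the members had a UMI of it against 55.3% of upper cells. *Nkd1*, an intracellular feedback inhibitor, was at 49.8 against 332 CPM (-2.51), *Lef1*, itself a nuclear partner of beta-catenin, at 16 against 111 CPM (-2.21), and *Axin2*, a part of the destruction complex, at 31.4 against 97.6 CPM (-1.38, -1.69 to -1.07). *Lgr5* and *Rnf43* had too few UMIs to be tested.

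For 3 of the genes in that list the letters CTTTGA, the core of the TCF and LEF motif, occur near an annotated start. The sequences are the 250 bases before the start, from the RefSeq windows of GRCm38.p6, with the motif on either strand in capitals (CTTTGA, or TCAAAG when it lies on the opposite strand), and are shown because *Sp5*, *Lef1* and *Dkk1* were among the Wnt targets that were lower in the members. The *Sp5* window is chr2:70474673-70474922 on the plus strand, the *Dkk1* window chr19:30549497-30549746 on the minus strand, and the *Lef1* window chr3:131156044-131156293 on the plus strand, at a start inside the gene.
Sp5: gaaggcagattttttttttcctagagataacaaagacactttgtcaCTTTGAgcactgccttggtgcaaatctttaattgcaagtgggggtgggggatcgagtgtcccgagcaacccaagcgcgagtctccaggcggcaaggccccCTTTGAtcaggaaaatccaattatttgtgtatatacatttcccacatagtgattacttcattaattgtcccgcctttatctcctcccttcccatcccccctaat
Dkk1: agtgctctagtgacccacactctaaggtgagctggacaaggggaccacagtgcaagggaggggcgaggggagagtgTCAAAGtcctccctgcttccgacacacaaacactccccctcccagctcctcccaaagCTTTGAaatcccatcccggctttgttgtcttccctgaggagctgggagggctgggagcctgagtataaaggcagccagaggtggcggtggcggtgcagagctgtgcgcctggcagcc
Lef1: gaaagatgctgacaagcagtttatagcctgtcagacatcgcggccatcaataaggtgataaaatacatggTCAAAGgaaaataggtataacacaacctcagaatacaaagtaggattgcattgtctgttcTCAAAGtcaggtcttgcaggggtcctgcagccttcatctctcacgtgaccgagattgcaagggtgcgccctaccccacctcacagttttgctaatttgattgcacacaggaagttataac
Each of the 3 stretches holds 2 matches. Windows of 300 bases (250 before and 50 after the start) were given for 9 genes of the list, and 3 of the 9 had a match, against 18.2% of 27025 genes. By window, 3 of the 14 windows of these 9 genes hold the motif, against 16% of all 32851 windows. A match describes these letters and is not a measured binding site.

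The secreted Wnt inhibitors split by gene. *Sfrp2* and *Sfrp1*, frizzled-related proteins that bind Wnt ligands, were higher in the members, at 619 against 80.5 CPM (2.80, 2.66 to 2.93) and at 309 against 66.9 CPM (2.05, 1.89 to 2.22), and so was *Dkk2*, which binds the LRP co-receptors (1.69). *Notum*, *Dkk1* and *Wif1*, which are also in the Wnt target list, differed by -2.23, -2.04 and -1.77, with *Notum* at 5.93 against 64.5 CPM. Of 8 Wnt ligands and R-spondins tested, *Wnt2* was higher (1.54) and *Rspo1* lower (-1.43), and *Wnt5a* was at 135.2 against 163.5 CPM (-0.26).

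Iroquois homeobox genes, a list drawn up after these values were seen, were lower in 5 of 5 genes tested. *Irx1* was at 60.5 against 374 CPM (-2.45, -2.69 to -2.20), *Irx3* at 49.2 against 318 CPM (-2.47) and *Irx5* at 44.5 against 280 CPM (-2.41). The lowest value of all was that of *Casz1*, a zinc finger factor, with 13 UMIs in the members, at 7.71 against 128 CPM (-2.96, -3.32 to -2.61). *Ass1*, an enzyme of arginine synthesis, was at 8.90 against 112 CPM (-2.70), and *Grem1*, a secreted antagonist of bone morphogenetic proteins, at 6.52 against 72.6 CPM (-2.32). *Runx3* had 3 UMIs in the members and was at 1.78 against 48.2 CPM. The other genes among the 12 lowest were *Lin7a* (-2.30) and *Serpinc1* (-2.30).

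Other transcription factors and guidance genes differed gene by gene. Of 25 mesenchymal factors tested, 6 were higher, among them *Nfia* and *Nfib*, nuclear factor I proteins (1.25 and 1.08), *Meox2* (1.46) and *Osr2* (1.28), and *Twist1*, a mesenchymal factor related to the rule gene *Twist2*, was lower (-1.08, and -0.73 without cells holding cell cycle genes). No Hox gene of 23 was higher and 3 were lower, with *Hoxc10* at 9.49 against 69.8 CPM (-2.03, -2.40 to -1.67). Of 18 guidance genes, 5 were higher and 2 lower. The semaphorin co-receptors went in opposite directions: *Nrp1* was at 137 against 642 CPM (-2.15) and *Nrp2* at 61.1 against 12.5 CPM (1.66). *Epha3*, an ephrin receptor, was at 87.2 against 11.9 CPM (2.15).

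Smaller lists gave single genes. Of 5 bone morphogenetic protein ligands only *Gdf10* was higher, at 30.3 against 7.33 CPM (1.22), and of their 8 antagonists *Fstl1* was higher (1.02) while *Grem1* and *Nbl1* (-1.26) were lower. Of 8 fibroblast and platelet-derived growth factor genes, *Fgf18* and *Fgf7*, ligands of mesenchymal cells, were higher by 1.54 and 1.31, and *Fgfr2* was lower (-1.04). Cues to other cells were higher in 3 of 11 genes: *Ptn*, *Angpt1*, a ligand of the endothelial receptor TIE2 (1.14), and *Kitl*, the ligand of KIT on melanocyte precursors and mast cells (1.10). Of 7 small proteoglycans, *Ogn* and *Kera* were higher, and *Vcan*, the large proteoglycan versican, was at 161 against 314 CPM (-0.92).

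Genes of the cell cycle had values below 0 throughout both lists, mostly by less than 1 log2 unit. All 20 G2 and M phase genes had a value below 0, from -1.26 for *Hmmr* to -0.49 for *Kif23*, and 4 of them were counted as lower. The 18 S phase genes lay between -0.90 and -0.08, and none was counted. Without cells holding RNA of other types 9 G2 and M phase genes were lower. Cells with more than 0.1% of their UMIs in either list were 66.7% (60.1% to 72.8%) of the members, 88.9% (86.5% to 91.0%) of upper cells and 78.6% of mixed cells. These are the cells called holding cell cycle genes where such cells were left out. *Cdkn1c*, an imprinted inhibitor of the cell cycle, was at 3452 against 1045 CPM (1.71, 1.66 to 1.76), while *Cdkn1a* was at 8.30 against 25.7 CPM.

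Against mixed cells, which hold UMIs of both gene sets, few genes differed. Of 11644 genes tested, 8 were higher in the members (0.0687%) and 17 were lower (0.146%). *Igf1* was at 464 against 210 CPM (1.11, 1.0 to 1.22), *Hmx1* at 81.3 against 33.6 CPM (1.07, 0.83 to 1.3), *Socs2*, a feedback inhibitor of cytokine receptors, at 62.9 against 22.3 CPM (1.17), and *Cdh4*, a cadherin, at 32.6 against 11.0 CPM (1.02). *Cldn11* was at 33.8 against 9.15 CPM, but 1 cell held 78.9% of its UMIs in the members, and 3.51% of the members had a UMI against 4.87% of mixed cells. The highest difference, that of *Vtn* (1.94), came from 57 UMIs in 2 members, 94.7% of them in 1 cell. Of 13 Wnt targets tested here, 2 were lower, and 4 of 5 Iroquois genes were, with *Irx1* at 60.5 against 179 CPM (-1.42, -1.66 to -1.17). *Hoxc10* was at 9.49 against 48.1 CPM (-1.58) and *Casz1* at 7.71 against 35.5 CPM (-1.36). Without cells holding RNA of other types, 21 genes were higher and 30 lower.

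Levels differed step by step along D minus U, among cells in which D and U summed to at least 3. *Igf1* was at 30.6 CPM in the 126 cells with D minus U of -5 or less, 202 CPM at 0, 402 CPM at 2 and 460 CPM at 3. *Ptn* was at 540, 1541, 2792 and 3265 CPM at the same steps. *Sp5* was at 183, 29.5, 16.4 and 9.06 CPM, and *Irx1* at 407, 170, 84.4 and 62.7 CPM. For these 4 genes the cells at 2 had values between those at 0 and 3, whereas *Cdkn1c* was at 2676, 3478 and 3454 CPM at 0, 2 and 3. The 41 cells with 4 and the 9 with 5 held *Igf1* at 489 and 426 CPM and *Sp5* at 26.6 and 16.4 CPM.

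**Figure D3:**
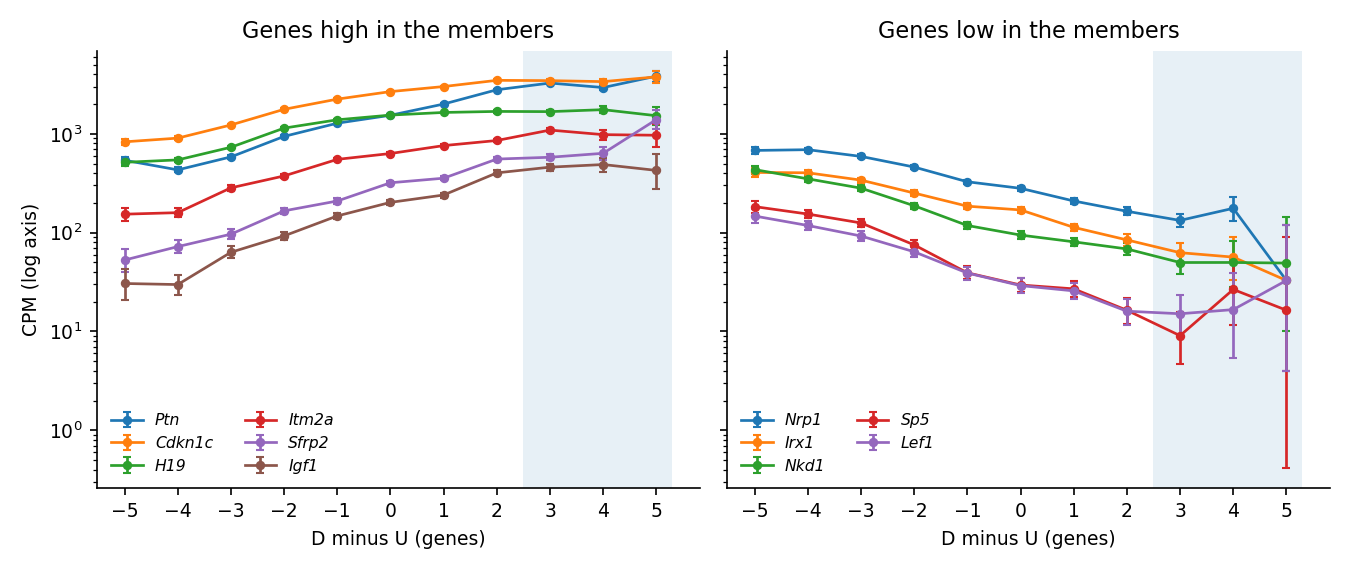
Level in CPM on a log axis (y axis) of genes high (left) and low (right) in the members, by D minus U (x axis, genes; the ends hold -5 or less and 5 or more) at E13.5, with 95% Poisson intervals and the members shaded. *Igf1* goes from 30.6 CPM at the left end to 460 CPM at 3, and *Sp5* from 183 to 9.06 CPM.

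Within the members, 5 genes were used to describe heterogeneity, none of which was in the rule: *Sfrp2*, *Acta2* (smooth muscle actin), *Dkk2*, *Hmx1* (a homeobox factor) and *Scx*. *Sfrp2* had UMIs in 176 of the 228 members, which is 77.2% (71.2% to 82.5%). *Acta2* had UMIs in 114 members (50%, 43.3% to 56.7%) and *Dkk2* in 108 (47.4%, 40.7% to 54.1%). *Hmx1* had UMIs in 57 members (25.0%, 19.5% to 31.1%) and *Scx* in 40 (17.5%, 12.8% to 23.1%). At these depths, cells with and without a UMI of the rarer genes cannot be cleanly separated, since a cell without a UMI may still express the gene.

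To set the shares beside a background, every cell was thinned to 3400 UMIs. As a reference, 152 immune cells of the same library were used, chosen by *Ptprc* and at least 3 genes of the immune list and with a median of 10269.5 UMIs before thinning. *Sfrp2* was then found in 69.3% of the members, 47.2% of mixed cells, 22.4% of upper cells and 11.2% of the immune cells. *Hmx1* was found in 15.4% of the members (10.9% to 20.7%), 7.77% of mixed cells, 3.67% of upper cells and 1.97% of the immune cells. *Scx* was found in 13.6% (9.43% to 18.7%), 6.37%, 1.77% and 1.32% of the same groups. *Acta2* was at 40.4% in the members and 39.5% in mixed cells, with overlapping intervals, and upper and immune cells were at 22.7% and 15.1%. *Dkk2* was at 32.9% in the members and 28.7% in mixed cells, with overlapping intervals, and at 9.87% in upper cells and 8.55% in immune cells. In upper cells the shares of *Dkk2*, *Hmx1* and *Scx* lay within the interval of the immune cells. By level, *Dkk2* was at 38.6 CPM (34.0 to 43.5) in upper and 19.9 CPM (13.8 to 27.6) in immune cells, and *Hmx1* at 12.5 (9.95 to 15.4) and 5.11 CPM (2.34 to 9.70), so these were above the immune cells in level. In the members the shares of all 5 genes were above those of the immune cells.

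**Figure D4:**
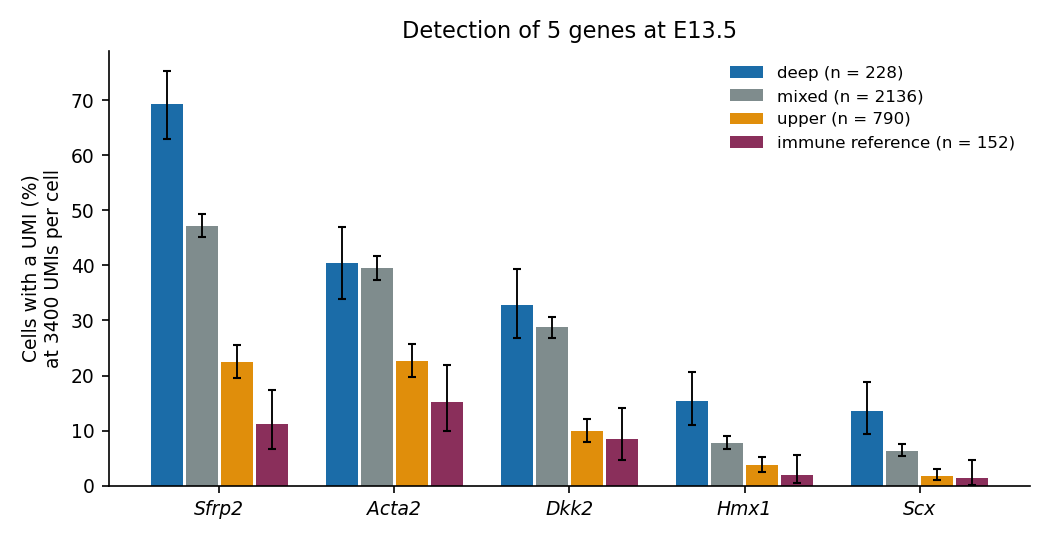
Percent of cells with at least 1 UMI (y axis) of 5 genes (x axis) after thinning to 3400 UMIs per cell, in deep, mixed, upper and immune reference cells at E13.5, with exact 95% binomial intervals. *Sfrp2*, *Hmx1* and *Scx* are highest in the deep cells, and *Acta2* and *Dkk2* have overlapping intervals in deep and mixed cells.

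The 5 genes seldom marked exclusive sets of cells. At thinned depth, 25 members had none of the 5 genes, 68 had 1, 91 had 2, 35 had 3, 9 had 4 and none had all 5. *Sfrp2* was found in 71.0% of the 31 members with *Scx* and 69.0% of the 197 without it. *Acta2* was found in 49.3% of the 75 members with *Dkk2* (37.6% to 61.1%) and 35.9% of the others (28.4% to 44.1%), and in 25.8% of the members with *Scx* (11.9% to 44.6%) against 42.6% of the others (35.6% to 49.9%). These intervals overlap, and a detected gene depends on depth in each cell.

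Summed levels were also compared between members with and without each gene. The splits were made on thinned UMIs of the same cells, so the values are descriptive. In the 31 members with *Scx*, *Tgfb2* was at 442 CPM against 119 CPM in the rest (1.81, 1.47 to 2.14), *Tnc* at 126 against 31.3 CPM (1.72), *Hmx1* at 191 against 62.5 CPM (1.47, 1.0 to 1.94) and *Pamr1* at 101 against 23.6 CPM (1.73). *Acta2* was at 65 against 227 CPM (-1.66, -2.29 to -1.03) and *Dkk2* at 73.1 against 159 CPM (-1.03, -1.64 to -0.41). Without members holding RNA of other types, the differences were 1.87 (*Tgfb2*), 1.17 (*Hmx1*, 0.66 to 1.68), -2.04 (*Acta2*) and -1.22 (*Dkk2*). At thinned depth *Hmx1* was detected in 19.2% of these remaining members both with and without *Scx*. In the members with *Scx*, 1 cell held 14.7% of the *Tgfb2* UMIs, 1 held 25.8% of those of *Tnc* and 1 held 25.5% of those of *Hmx1*.

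In the 75 members with *Dkk2*, *Acta2* was at 340 against 134 CPM (1.28, 0.99 to 1.57), *Apod*, a secreted lipocalin, at 84.5 against 23.3 CPM (1.51), *Adamts5*, a protease that cleaves proteoglycans, at 95.1 against 34.0 CPM (1.26) and *Tnmd* at 102 against 43.8 CPM (1.06, 0.59 to 1.53). *Tnmd*, a tendon gene, thus went with *Dkk2* in this split, and 1 cell held 25.9% of the *Acta2* UMIs. The 35 members with *Hmx1* had *C1qtnf3* at 1259 against 311 CPM (1.98, 1.78 to 2.19) and *Scx* at 109 against 43.5 CPM (1.15, 0.56 to 1.73), and without members holding RNA of other types the *Scx* difference was 0.88 (0.24 to 1.52). A single cell held 34.6% of these *Scx* UMIs (40.9% without such members), and *Scx* was detected at thinned depth in 16.7% of the remaining members both with and without *Hmx1*. The 158 members with *Sfrp2* had *Klf4* at 190 against 37.3 CPM (2.08, 1.54 to 2.62), *C1qtnf3* at 569 against 161 CPM (1.76) and *Hmx1* at 107 against 21.6 CPM (1.89). Leaving out members with RNA of other types left 121 with and 35 without *Sfrp2*. The differences were then 1.92 (*Klf4*), 1.95 (*C1qtnf3*) and 1.73 (*Hmx1*). *C1qtnf3* is a gene of the rule, so its level in this and the *Hmx1* split was shaped by the choice of members.

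The 92 members with *Acta2* had *Stmn2* at 207 against 48.8 CPM (1.88) and *Tpm2*, a tropomyosin, at 282 against 131 CPM (1.05). The keratins *Krt14* (1.48) and *Krt5* (1.22) were higher too. However, 1 cell held 53.6% of the *Krt14* UMIs in these members, and 1 cell held 62.8% of those of *Krt5*. By share of cells, *Krt14* had UMIs in 14.13% of the members with *Acta2* and 11.03% of the rest. *Krt5* had UMIs in 11.96% and 6.62%. In members without RNA of other types, *Krt14* differed by -0.12 (-0.98 to 0.74), while *Stmn2* and *Tpm2* differed by 2.11 and 1.3. *Krt14* is in the epithelial list by which members were left out, so its smaller difference was partly built in. *Stmn2* is in the neuronal list, and the part of RNA from other cells in its difference was not tested. The 15 mural and contractile genes listed summed to 585 CPM in the members and 308 CPM in upper cells, and 2 of the 5 tested, *Tagln* (1.20) and *Acta2*, were higher. *Myl9*, a myosin light chain, was at 199 against 110 CPM (0.80), while the mural markers *Rgs5* and *Cspg4* were at 4.15 and 6.52 CPM and *Myh11* was at 0. *Acta2* was higher in the members than in upper cells by 1.11, and by 0.26 when cells with cell cycle genes were left out of both groups. That exclusion took out 152 of the 228 members and 702 of the 790 upper cells.

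Graph clustering of the members alone, without the rule genes and the cell cycle lists, gave 6 sub-clusters of 60, 50, 32, 32, 28 and 26 cells. Leading genes define a sub-cluster and are not a result about it. The first (60 cells) was led by *Vtn*, *Cldn11*, *Ebf2*, *Rhoj*, *Tcea3* and *Limch1*, although 1 cell held all 54 of its *Vtn* UMIs and 88.2% of its *Cldn11* UMIs. The second (50 cells) was led by *Kcnk2*, *Hoxc8*, *Irx1*, *Sostdc1*, *Nppc* and *Hoxc6*. The third (32 cells) was led by globin genes and *Pf4*, and all 32 of its cells held RNA of other types. The fourth (32 cells) was led by *Krt17*, *Slc2a3*, *Sfn*, *Krt5* and *Mt2*, and 24 of its cells held such RNA. The fifth (28 cells) was led by histone genes, *Top2a* and *Spc25*, and the sixth (26 cells) by *Adamts5*, *Ptx3*, *Clu*, *Klf4*, *Apod* and *Svep1*. No sub-cluster is given a cell type name.

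The 5 genes were distributed unevenly over these sub-clusters. They were not among the genes left out of the clustering, so part of this unevenness can be built in, and the values are descriptive. *Scx* was at 103 CPM (75.7 to 137) in the first, 102 CPM in the fifth, 36 CPM in the second and 4.18 CPM, from 1 UMI, in the sixth. *Hmx1* was at 173 CPM in sub-cluster 1 and 12 CPM in sub-cluster 2. *Dkk2* was at 356 CPM (284 to 440) in the sixth and between 82.9 and 141 CPM in the others. *Acta2* was at 481 CPM in the sixth but in 53.8% of its cells, and at 43.8 CPM (26.8 to 67.7) in the first. In the sixth, 1 cell held 50 of the 115 *Acta2* UMIs, and in the fifth *Acta2* was at 261 CPM in 71.4% of the cells. *Sfrp2* reached 1050 CPM (sub-cluster 1) and 983 CPM (sub-cluster 6), and was at 419 CPM or less elsewhere. The first and the sixth thus shared high *Sfrp2* and differed in *Scx*, *Acta2* and *Dkk2*. The rule genes were uneven as well: sub-clusters 1 and 2 held *C1qtnf3* at 971 and 102 CPM and *Osr1* at 204 and 408 CPM.

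**Figure D5:**
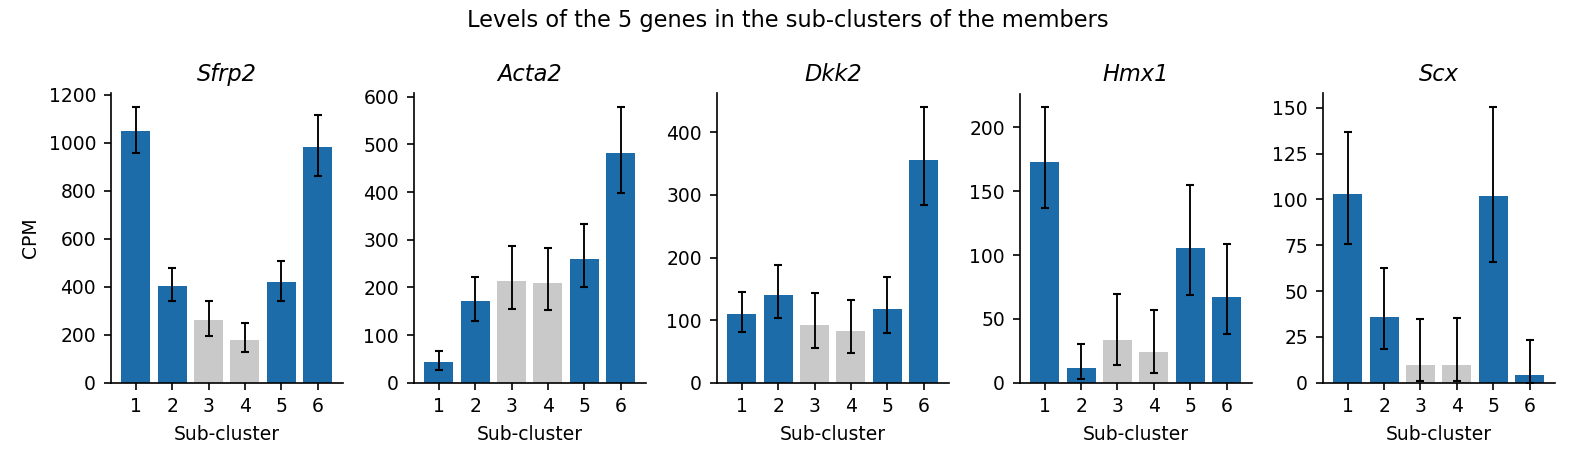
Level in CPM (y axis, a scale of its own for each gene) of *Sfrp2*, *Acta2*, *Dkk2*, *Hmx1* and *Scx* in sub-clusters 1 to 6 of the members (x axis), with 95% Poisson intervals. Grey bars are the sub-clusters led by globin and by keratin genes, *Scx* is at 103 CPM in 1 and 4.18 CPM in 6, and *Dkk2* is highest in 6 at 356 CPM. In sub-cluster 6, 1 cell held 50 of the 115 *Acta2* UMIs. The genes shown were not left out of the clustering.

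The same rule applied to the later libraries gave 95 cells at E16.5, which were 3.09% (2.5% to 3.76%) of the 3077 cells without the lineage genes, and 114 cells at P0, which were 3.70% (3.06% to 4.42%) of 3085. Stage, library and, at P0, digestion cannot be told apart, so the levels stand side by side without a test. The rule also does not make the same cut in each library. In upper cells *Calb1* was at 206, 1.34 and 0 CPM at E13.5, E16.5 and P0. *Lix1* was at 368, 108 and 7.45 CPM, whereas *Twist2* was at 803, 1344 and 1016 CPM. The shares and groups are therefore not like for like across stages. Deep cells were compared with upper cells within each library. At E16.5, 3.64% of 9622 genes were higher and 2.29% lower, and at P0 5.18% of 5274 genes were higher and 10.6% lower. The 12 genes highest at E13.5 were all higher by at least 1 log2 unit at E16.5, and 10 of them at P0, the exceptions being *Igf1* (0.90) and *Zfhx3* (0.72). Of the 12 lowest, 6 were lower by at least 1 log2 unit at E16.5 and 3 at P0, and *Irx3* differed by 1.35 in the other direction at P0.

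In deep cells by stage, *Scx* was at 52.8 CPM at E13.5, 0.94 CPM (1 UMI) at E16.5 and 0 at P0, where 0 of 820042 UMIs allows up to 3.66 CPM (a limit of 3 UMIs). *Hmx1* was at 81.3, 2.82 and 2.44 CPM. *Dkk2* was at 147, 100 and 4.88 CPM. *Sfrp2* was at 619, 511 and 755 CPM, with UMIs in 77.2%, 87.4% and 78.1% of the cells. *Igf1* was at 464, 307 and 151 CPM.

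Among matrix genes, *Col1a1* was at 2439, 9931 and 19226 CPM and *Dpt*, dermatopontin, at 32.0, 614 and 944 CPM, whereas *Ogn* was at 305, 282 and 345 CPM. *Clec3b*, the fibroblast gene tetranectin, was at 4.15, 419 and 579 CPM. *Ly6a*, the surface antigen Sca-1 of deep dermal and fat precursor cells, had no UMI at E13.5, which allows up to 1.78 CPM, and stood at 99.6 and 1380 CPM in the later libraries. *Fabp4* and *Lpl*, genes of lipid handling in fat cells, were at 1.19 and 10.1 CPM at E13.5 and at 862 and 704 CPM at P0. *Hmga2*, a chromatin protein of fetal tissue, was at 240, 17.8 and 4.88 CPM, and *Nnat*, an imprinted gene, at 367, 15 and 0 CPM. The embryonic globin *Hbb-y* was at 6043, 20.7 and 0 CPM, and globin RNA is one of the other-cell signals in these libraries.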

How the data were processed

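Back skin cells at E13.5, E16.5 and P0 were profiled with a droplet 3' method, 1 library for each stage. Per the submitters' processing notes reads were handled with Cell Ranger 2.2.0 and mm10, and by the study's methods cells with fewer than 1750 genes were removed in Seurat. The deposited values are on a natural log scale: scaled UMIs, with each cell brought to a total of 10000 and 1 added, as found from the values themselves. All 48197283 values above 0 came back as whole UMIs within a tolerance of 0.001. The series' design text states 15086 cells, whereas the table holds 16235 cells and 19165 genes, all cells with at least 1750 genes.

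UMIs were summed over the cells of a group and scaled to CPM. Differences are log2 ratios after adding 10 CPM, among genes with at least 50 UMIs over both groups, and a gene is counted from 1 log2 unit. The minimum of UMIs was not applied where the 12 highest and 12 lowest genes were followed into the later libraries. Intervals at 95% are Poisson (levels, differences) or exact binomial (shares) and cover counting error only. No test was run, since cells are not replicates. Doublets were kept: Scrublet called 0 of 5962 E13.5 cells, so the caller did not work there. Sub-clusters come from Leiden at resolution 0.6 on 1000 variable genes, 15 components and 15 neighbours (scanpy 1.11.5, leidenalg 0.10.2, Python 3.11.15). Positions are from GENCODE vM21 and start-site windows from RefSeq (GRCm38.p6).

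The members, the gene lists and the named genes were chosen with earlier results of these data known. Genes named are those of the lists, the 12 highest and 12 lowest of deep against upper cells, the 8 highest and 8 lowest between stages, the 6 highest against mixed cells and in each split, and the 6 leading genes of each sub-cluster, of which 1 is not reported here. The lists of imprinted and Iroquois genes were written after their values were seen. Alternatives changed the threshold, the depth, the added CPM, the minimum of UMIs, the weight of cells, the scaling and the cells left out.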

Additional observations from a re-analysis of the deposited data

Results flagged for a closer look

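For 4 genes counted as higher in deep than in upper cells at E13.5, the difference within the P0 library was at least 1 log2 unit in the other direction. The difference between stages was not tested, since each stage is 1 library. *Dkk2* was higher by 1.69 at E13.5 and differed by -2.21 (-2.74 to -1.69) at P0, at 4.88 CPM in deep and 58.9 CPM in upper cells. *Osr2* differed by 1.28 and -1.97 (-2.18 to -1.76), at 232 and 935 CPM at P0. *Meox2* differed by 1.46 and -1.35 (-1.85 to -0.85), at 24.4 and 77.6 CPM at P0. *Col8a1* differed by 1.02 and -1.57 (-2.13 to -1.01), at 6.10 and 37.8 CPM at P0, where 1 cell held 80% of its UMIs in deep cells, and the E13.5 difference was 0.30 without cells holding cell cycle genes. The collagenase digestion of the P0 skin moves with the stage, and its part was not tested. The rule also does not make the same cut at P0, so the groups compared are not like for like.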

How the results depend on the processing

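The 105 named genes past 1 log2 unit kept their direction under every alternative in which they had enough UMIs, but not always their size: 46 stayed past 1 log2 unit with 50 CPM added, 74 with D minus U of at least 2, and 102 of 103 without cells holding RNA of other types. Without cells holding cell cycle genes, *Acta2* (0.26), *Col8a1* (0.30), *Ebf1* (0.87), *Epha4* (0.68), *Birc5* (-0.92) and *Twist1* (-0.73) were within 1 log2 unit. This left out 152 of the 228 members and 702 of the 790 upper cells, and only 71 of the 105 named genes still had enough UMIs. What part the smaller groups had in these values was not tested. Of the rule genes, *Osr1* lost its difference when the cells were chosen without it, at -0.17 with an interval that includes 0 (-0.41 to 0.07). The number of members was 581 with a threshold of 2, 50 with a threshold of 4, 105 with at least 2500 genes per cell and 4 when every cell with at least 2 UMIs of 2 genes of an other-type list was left out, because globin UMIs are in nearly all cells. With those 4 members, 6 genes were higher and 6 lower than in upper cells, and 11 lower than in mixed cells.

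Genes higher and lower than in upper cells numbered 382 and 431 with 1 CPM added, 49 and 33 with 50 CPM added, and 128 and 86 with a threshold of 2. With a minimum of 200 UMIs 91 were higher, with a threshold of 4 359 were lower, and without cells holding cell cycle genes 125 were higher. Genes higher and lower than in mixed cells numbered 92 and 200 with 1 CPM added, 0 and 2 with 50, 1 and 5 with a threshold of 2, 76 and 126 with a threshold of 4, 14 and 36 with 2500 genes, 20 and 50 without cells holding cell cycle genes, and 21 and 30 without cells holding RNA of other types. Without the top 6% of doublet scores 13 were higher. 

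Thinned to 3400 UMIs, the share of members with a UMI was 69.3% for *Sfrp2*, 40.4% for *Acta2*, 15.4% for *Hmx1* and 32.9% for *Dkk2*. A threshold of 4 gave 84.0% for *Sfrp2* and 32.0% for *Hmx1*, and 2500 genes gave 84.8% for *Sfrp2*, 31.4% for *Hmx1* and 61.9% for *Dkk2*. *Sfrp2* was at 85.9% without cells holding RNA of other types, and *Sfrp2* and *Scx* were at 87.2% and 23.2% without the sub-clusters led by globin and keratin genes. These exclusions were chosen after seeing the data. Clustering gave 3 sub-clusters at resolution 0.4, 9 at 1, 6 with 2000 variable genes and 7 with cell cycle and rule genes kept. Their adjusted Rand indices with the reported sub-clusters (1 for the same grouping) were 0.548, 0.634, 0.505 and 0.709, so membership depends on these settings. No paired analysis was possible because each stage is 1 library with no replicate number. Depth limits statements on genes under 10 CPM in the members, where 1 UMI is 0.593 CPM.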

Other observations

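Imprinted genes, which are expressed from 1 parental allele and include many regulators of fetal growth, were listed after their values had been seen. Of 20 tested in deep against upper cells at E13.5, 5 were higher and none lower, with a median of 0.59 against -0.04 over all genes tested. *Plagl1*, a zinc finger factor, was at 292 against 51.9 CPM (2.29, 2.11 to 2.46), and *Cdkn1c*, *H19*, *Igf2* and *Igf2r* were the other 4. Of these, *H19*, *Igf2* and *Igf2r* are also in the insulin-like growth factor list. *Dlk1*, a Notch-family ligand of fat precursor cells, was at 2766 against 1396 CPM (0.98, 0.93 to 1.03) and *Meg3*, a noncoding RNA of the same locus, at 6718 against 3709 CPM (0.86). Not all imprinted genes went this way: *Peg3* was at 760 against 1360 CPM (-0.83, -0.91 to -0.75) and *Gnas* at 2157 against 2219 CPM (-0.04). Across the 3 libraries in stage order, *Igf2* in deep cells was at 1825, 3372 and 330 CPM. Without cells holding RNA of other types, 7 imprinted genes were higher.

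The 9 angiotensin genes other than *Agtr2* had low levels, summing to 33.8 CPM in the members and 12.6 CPM in upper cells. *Ren1*, renin, was at 10.7 against 0.88 CPM in upper cells, *Agtr1a* at 9.49 against 2.2 CPM, and *Agt* and *Ace* had no UMI in either group, which allows up to 1.78 CPM in the members. Of 10 listed, 1 gene besides *Agtr2* had enough UMIs and it did not reach 1 log2 unit. Hedgehog response genes did not reach 1 log2 unit in any of 3 tested. Of 10 immediate early genes, which can respond to dissociation, none reached 1 log2 unit, and *Jun* and *Fos* were at 237 against 121 CPM (0.91) and 77.7 against 39.6 CPM (0.82). Their median was 0.57 against -0.04 over all genes tested. Without cells holding RNA of other types, 1 of 9 immediate early genes was higher.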
